A study of Mus musculus with 5 samples.

Results

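The genes described here are 10 ATP-dependent chromatin remodeler genes: Smarca4, Smarca2, Smarcb1, Smarcc1, Smarcd1, Smarcd3, Arid1a and Pbrm1 of the BAF (SWI/SNF) family of complexes, and Chd4 and Chd7 of the CHD family. They were chosen by name, with earlier results of these data known, and all 10 were found among the 18307 genes of the RefSeq table and passed the filter on low counts. RNA had been sequenced from heart ventricles of CD-1 mouse embryos, an outbred strain, at embryonic day 10.5. The 3 caffeine libraries came from litters whose dams were injected every day from embryonic day 6.5 to 9.5 with caffeine at 20 mg/kg, a methylxanthine that blocks adenosine receptors. The 2 vehicle libraries came from litters whose dams received 0.9% NaCl over the same days. Each library was a pool of ventricles of embryos that shared dams, so the embryo was not the unit of replication, and no genetic alteration is given in the labels.

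Remodelers use ATP to slide, evict or reshape nucleosomes and so set which promoters and enhancers can be read. BAF complexes hold 1 of 2 alternative ATPases (Smarca4, also called BRG1, or Smarca2, also called BRM) on a shared core, and they take on different character with the subunits that join it, Arid1 proteins in canonical BAF and Pbrm1 in PBAF. In the embryonic heart BRG1 is needed for myocardial growth and trabeculation, and Smarcd3 links the complex to cardiac transcription factors. Chd4 is the ATPase of the NuRD complex, which joins remodeling to histone deacetylation, and CHD7 mutations cause CHARGE syndrome, in which heart defects are common.

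None of the 10 genes passed a false discovery rate (FDR) of 0.05 for caffeine against vehicle in edgeR, nor did any with DESeq2 or limma-voom. In the same edgeR fit 0.00723% of the 13829 tested genes passed. Chd4 was the 1 gene of the 10 with an unadjusted p under 0.05, a share of genes that was 5.2% over all tested genes and 2.07% for those lower in caffeine. Vehicle and caffeine ranges were apart for 2 of the 10 genes, Chd4 and Smarcc1, both lower in caffeine, against 20.4% of all tested genes in either direction and 9.27% in the lower direction. Log2 fold changes (caffeine minus vehicle) were negative for 8 genes and positive for 2, with a median of -0.13 and a range from -0.34 to 0.13, and 47% of all tested genes had a negative value, with a median of 0.01. Values below are counts scaled to the library total with TMM factors (CPM), which compare 1 gene between libraries, and ± is the SD over the 2 vehicle or the 3 caffeine libraries. The spread behind each p is that between pools. In pooled tissue fewer cells of a type and less RNA per cell cannot be told apart.

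**Figure D1:**
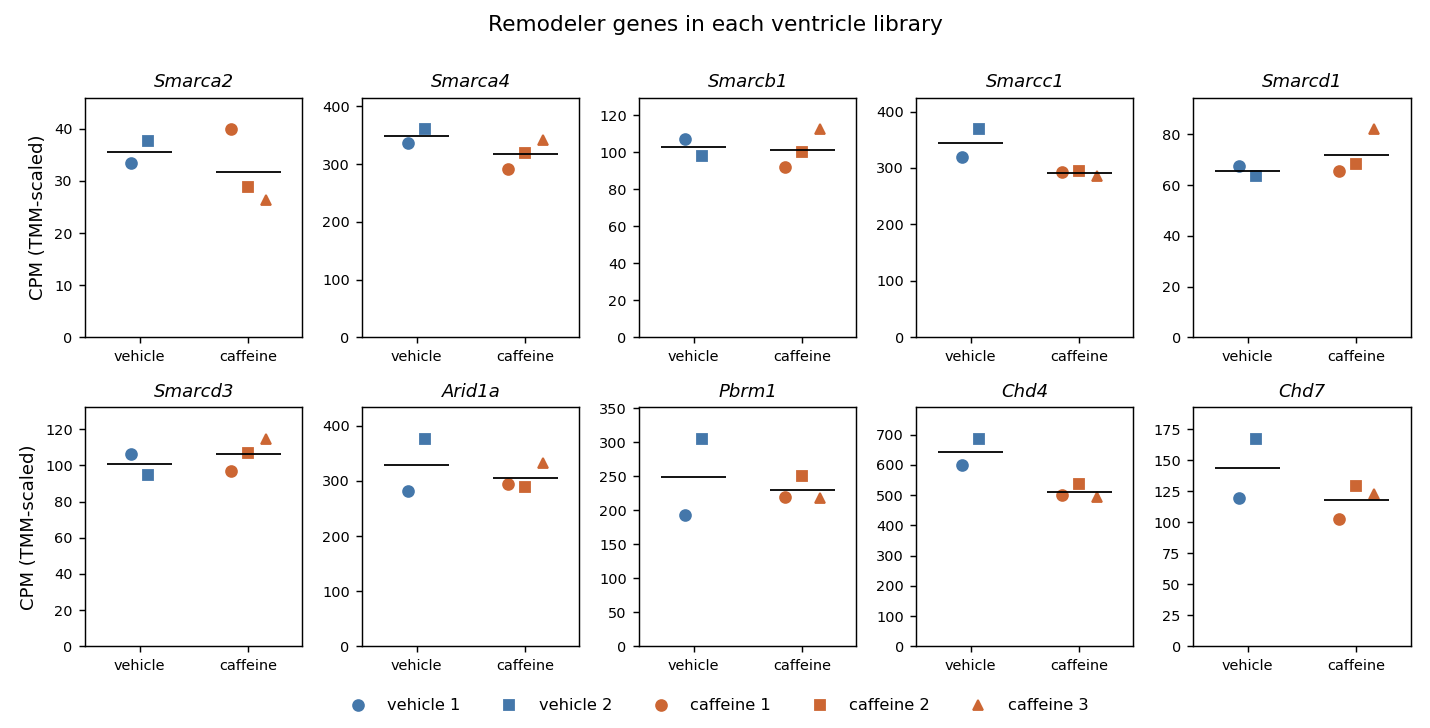
Points are the TMM-scaled CPM of each gene in each library, on an axis from 0, with the group mean as a line. All 3 caffeine points lie below both vehicle points for Smarcc1 and Chd4, and the groups overlap in the other 8 panels.

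Smarca4, the BRG1 ATPase, had 336 and 360.3 CPM in vehicle replicates 1 and 2, and 292, 319.7 and 342 CPM in caffeine replicates 1, 2 and 3. The highest caffeine library lay between the vehicle libraries, so the groups overlapped. The means were 348 ± 17.2 and 318 ± 25.2 CPM, a log2 fold change of -0.13 (SE 0.12, edgeR adjusted p = 0.999, with 8155, 7910, 7029, 7439 and 7539 counts behind it). It ran from -0.19 without caffeine replicate 3 to -0.07 without caffeine replicate 1. Smarca2, the BRM ATPase, stood at 33.4 and 37.7 CPM in the vehicle libraries, against 39.9, 28.8 and 26.4 CPM in caffeine. Caffeine held both the highest library and the lowest ones. Its log2 fold change was -0.16 (SE 0.18, edgeR adjusted p = 0.999), and it ran from -0.36 without caffeine replicate 1 to -0.05 without caffeine replicate 3.

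The ratio of Smarca2 to Smarca4 within a library is free of library scaling. On the linear CPM scale, not corrected for length, it was 0.0993 and 0.105 for the vehicle pools, against 0.137, 0.0902 and 0.0771 for the caffeine pools, so both vehicle ratios lay inside the caffeine range. The mean log2 ratio differed by -0.05 between groups (exact permutation test, two-sided, p = 1, adjusted p = 1 over 5 ratios). With 2 libraries against 3 this test cannot give a p below 0.2. The ratio is between whole genes. A short Smarca2 form without the exons for the ATPase, described below, held 29.9% to 59.1% of its transcript CPM. The balance of the 2 ATPases was thus not measured.

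Smarca4 was counted as 3 RefSeq transcripts that the deposited table places at the same start and end on chromosome 9 (21616169 to 21704230, mm10, plus strand). In the GENCODE M21 models of the same accessions they differ inside the coding sequence by short stretches only, shown here because they are the coding bases that tell the forms apart. NM_001174078 holds both stretches, NM_011417 lacks the first and holds the second, and NM_001174079 lacks both. Each stretch is in capitals with 15 coding bases on either side in lower case. The first spans chr9:21686013-21686021 and the second chr9:21699800-21699802, both in coding exons.
Smarca4 first stretch: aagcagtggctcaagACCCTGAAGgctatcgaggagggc
Smarca4 second stretch: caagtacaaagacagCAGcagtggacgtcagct

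NM_001174079, the form without either stretch, had 123 and 136 CPM in the vehicle libraries, against 82.7, 97.3 and 113 CPM in caffeine. All 3 caffeine libraries lay below both vehicle libraries. Its log2 fold change was -0.41 (SE 0.15, edgeR adjusted p = 0.618 over 18418 transcripts), and it ran from -0.52 to -0.30 with 1 library left out. NM_001174078 had 86.3 and 87.9 CPM in vehicle against 85.7, 92.7 and 98 CPM (log2 fold change 0.08, SE 0.12), and NM_011417 had 126 and 135 CPM against 123, 128.5 and 132 CPM (-0.03, SE 0.11). With 1 library left out NM_001174078 ran from 0.03 to 0.13 and NM_011417 from -0.08 to -0.0045. As a share of the gene's transcript CPM, NM_001174079 held 36.6% and 37.9% for the vehicle pools, against 28.4%, 30.6% and 32.9% for the caffeine pools. The other forms held larger shares in every caffeine library than in either vehicle library. For NM_001174078 they were from 24.5% to 25.7% in vehicle and from 28.6% to 29.4% in caffeine. Shares of a gene have a fixed total, so a lower share of NM_001174079 raises those of the other forms together. In CPM the groups did not overlap for 23.3% of all tested transcripts, and that rate was not taken for shares. A shift of transcripts against each other did not pass for Smarca4 (edgeR diffSpliceDGE gene-level F test, adjusted p = 0.312 over 2897 genes with several tested transcripts). Most bases are shared by all 3 forms, and the error of assigning reads to them was not tested.

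Smarca2 was counted as a long transcript, NM_011416 (chromosome 19, 26605160 to 26778321, plus strand, 1583 codons), and a short one, NM_026003, that starts inside the gene at 26748403, ends with it and has 236 codons. The gene 4931403E22Rik, on the other strand, overlaps its end. The short form starts downstream of the exons that code for the ATPase and keeps the bromodomain, which binds acetylated histones. NM_026003 had 19.7 and 16.1 CPM in the vehicle libraries, against 16.4, 12.5 and 7.9 CPM in caffeine, with caffeine replicate 1 between the vehicle libraries. Its log2 fold change was -0.54 (SE 0.30, edgeR adjusted p = 0.790), from -0.81 without caffeine replicate 1 to -0.31 without caffeine replicate 3. NM_011416 had 13.6 and 21.5 CPM in the vehicle libraries, against 23.5, 16.3 and 18.5 CPM in caffeine (0.15, SE 0.25). Its direction depended on the libraries, since leaving out vehicle replicate 1 gave -0.15, leaving out vehicle replicate 2 gave 0.48 and leaving out caffeine replicate 1 gave -0.01. The short form's share was 59.1% and 42.8% for the vehicle pools, against 41.1%, 43.4% and 29.9% for the caffeine pools. Vehicle replicate 1 was the highest library and caffeine replicate 3 the lowest, while the remaining 3 lay from 41.1% to 43.4%. Usage did not pass (edgeR diffSpliceDGE adjusted p = 0.482).

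**Figure D2:**
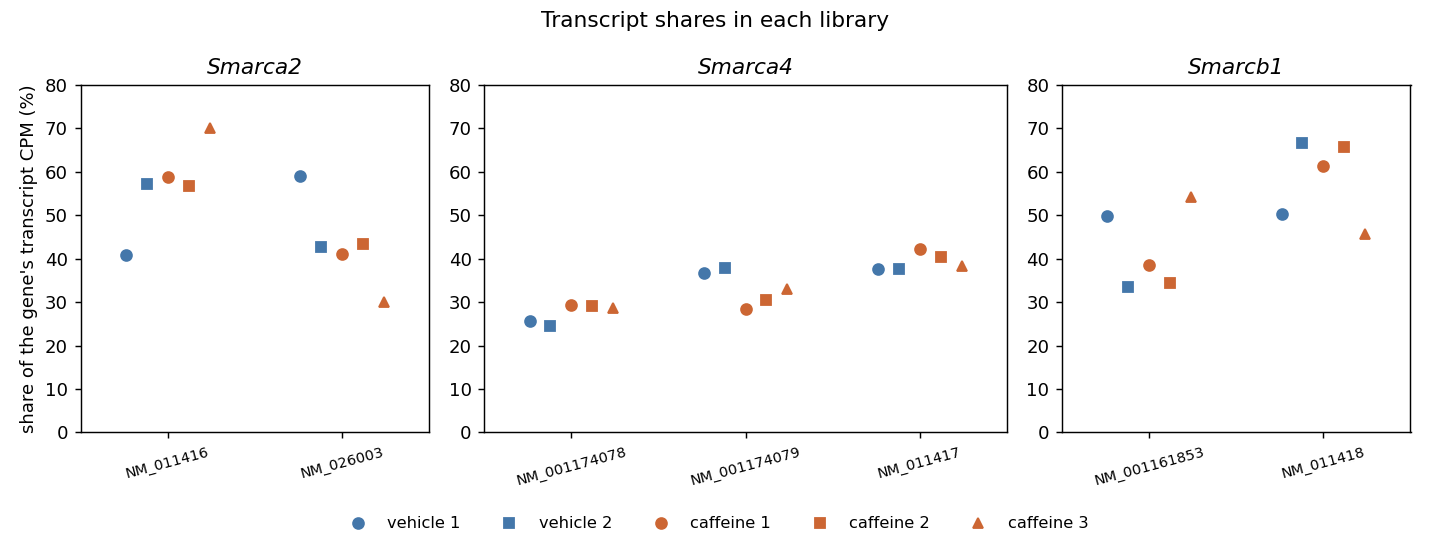
Each point is the share, in percent, of a gene's transcript CPM given to 1 RefSeq transcript in 1 library. For Smarca4 the vehicle and caffeine points separate for every transcript (NM_001174079 at 36.6% and 37.9% in vehicle, 28.4% to 32.9% in caffeine). Shares of a gene have a fixed total, so its transcripts are not separate observations. For Smarcb1 vehicle replicate 1 and caffeine replicate 3 stand together apart from the other libraries.

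Smarcb1, the SNF5 core subunit that contacts the nucleosome, had 107 and 98 CPM in the vehicle libraries, against 92.1, 99.96 and 112 CPM in caffeine. The caffeine libraries spanned both vehicle libraries, and the log2 fold change was -0.02 (SE 0.13, edgeR adjusted p = 0.999) and 0.0437 with no TMM scaling. Its transcripts, on chromosome 10 (75896769 to 75921614, minus strand), differ in the coding sequence by 27 bases, or 9 codons, at chr10:75916773-75916799, an exonic stretch that NM_011418 (385 codons) holds and NM_001161853 (376 codons) lacks. The 27 bases are in capitals, read 5′ to 3′ along the transcript, and they are shown because they are the coding bases by which the 2 forms differ.
Smarcb1 stretch: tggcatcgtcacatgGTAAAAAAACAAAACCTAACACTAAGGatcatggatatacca

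The form without the 27 bases, NM_001161853, held 49.8% and 33.4% of Smarcb1 in vehicle and 38.5%, 34.4% and 54.3% in caffeine. Vehicle replicate 1 and caffeine replicate 3 had the high shares, so the spread lay within groups and not between them. In CPM the form had 53.3 and 32.6 for the vehicle pools, against 35.5, 34.2 and 61.1 for the caffeine pools (log2 fold change 0.02, SE 0.30), and NM_011418 had a value of -0.04 (SE 0.15). Both turned with the library left out, NM_001161853 from -0.32 without vehicle replicate 2 to 0.42 without vehicle replicate 1, and NM_011418 from -0.17 without vehicle replicate 1 to 0.07 without vehicle replicate 2. With the replicate number as a block they had -0.26 and 0.04. Usage did not pass (edgeR diffSpliceDGE adjusted p = 0.994). Over all genes with several tested transcripts 3.07% passed the usage test at FDR 0.05, and none of these 3 genes did, whether with the F test or with the Simes adjustment. At an unadjusted p under 0.05 the count was 0 of 3, against 17.7% of all such genes.

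Smarcc1 (chromosome 9, 110132024 to 110240178, plus strand), a scaffold of the BAF core that binds the ATPase module, had 319 and 368 CPM in the vehicle libraries, against 292, 294 and 285 CPM in caffeine. All 3 caffeine libraries lay below both vehicle libraries and close to each other. The means were 344 ± 34.8 and 290.4 ± 4.86 CPM, a log2 fold change of -0.24 (SE 0.12, edgeR adjusted p = 0.982). It was -0.34 without vehicle replicate 1 and -0.16 without vehicle replicate 2.

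The Smarcd subunits are alternatives at 1 place in the complex, and Smarcd3 is the form enriched in heart and muscle. Smarcd1 lies on chromosome 15 (99702287 to 99713995, plus strand) and Smarcd3 on chromosome 5 (24592622 to 24602002, minus strand). Smarcd3 had 106 and 94.8 CPM in the vehicle libraries, against 97, 107 and 115 CPM in caffeine, a log2 fold change of 0.08 (SE 0.13, edgeR adjusted p = 0.999). Smarcd1 had 67.7 and 63.5 CPM in the vehicle libraries, against 65.6, 68.2 and 82 CPM in caffeine, a value of 0.13 (SE 0.14, edgeR adjusted p = 0.999). Both had their highest level in caffeine replicate 3, and the groups overlapped for both. Without vehicle replicate 2 Smarcd3 had -0.0253, and without caffeine replicate 3 Smarcd1 had 0.03. The CPM ratio of Smarcd3 to Smarcd1 was 1.57 and 1.49 for the vehicle pools, against 1.48, 1.57 and 1.40 for the caffeine pools, overlapping between groups (exact permutation test p = 0.4, adjusted p = 0.667).

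Arid1a (chromosome 4, 133679008 to 133753611, minus strand), the DNA-binding subunit of canonical BAF, had 282 and 377 CPM in the vehicle libraries, against 294, 289 and 333 CPM in caffeine. Pbrm1 (chromosome 14, 31019138 to 31121592, plus strand), the bromodomain subunit of PBAF, had 194 and 306 CPM in the vehicle libraries, against 219.7, 251 and 219 CPM in caffeine. For both genes vehicle replicate 1 was the lowest library of all 5 and vehicle replicate 2 the highest, with the caffeine libraries between. The log2 fold changes were -0.11 (SE 0.14) for Arid1a and -0.12 (SE 0.18) for Pbrm1, each with an edgeR adjusted p of 0.999, and their direction depended on the vehicle library. Without vehicle replicate 1 Arid1a had -0.30 and Pbrm1 -0.41, and without vehicle replicate 2 they had 0.09 and 0.22. The CPM ratio of Pbrm1 to Arid1a was 0.686 and 0.812 for the vehicle pools, against 0.747, 0.868 and 0.658 for the caffeine pools (exact permutation test p = 1), and that of Arid1b, the paralog of Arid1a, to Arid1a was 0.213 and 0.184 against 0.245, 0.216 and 0.201 (p = 0.4, adjusted p = 0.667). Arid1a lies inside the spans that the deposited table gives for 2 other genes, Gm5506 and Gm5801, which cover much of chromosome 4 and are on the other strand.

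Chd4 (chromosome 6, 125096163 to 125130501, plus strand), the NuRD ATPase, had the log2 fold change furthest from 0 of the 10. Its level was 601 and 687 CPM in the vehicle libraries, against 500.2, 537 and 494 CPM in caffeine, so every caffeine library was below both vehicle libraries. The means were 644 ± 60.8 and 510.2 ± 23.4 CPM, a log2 fold change of -0.34 (SE 0.12, 95% interval -0.60 to -0.07, edgeR adjusted p = 0.910). The value ran from -0.43 without vehicle replicate 1 to -0.26 without vehicle replicate 2, and its adjusted p over all alternatives ran from 0.610 to 1.00. Chd3, another NuRD ATPase, had 154 and 159 CPM in the vehicle libraries, against 133, 142 and 139 CPM in caffeine, a log2 fold change of -0.18 (SE 0.12, edgeR adjusted p = 0.999). The CPM ratio of Chd3 to Chd4 was 0.256 and 0.232 for the vehicle pools, against 0.266, 0.264 and 0.282 for the caffeine pools, higher in every caffeine library (exact permutation test p = 0.2, the smallest it can give, adjusted p = 0.667).

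Chd7 (chromosome 4, 8690406 to 8868449, plus strand), which binds enhancers marked for activity, had 120.0 and 168 CPM in the vehicle libraries, against 103, 129 and 123 CPM in caffeine. Vehicle replicate 2 was the highest library, and vehicle replicate 1 lay inside the caffeine range. The means were 144 ± 33.6 and 118 ± 13.7 CPM, a log2 fold change of -0.28 (SE 0.16, edgeR adjusted p = 0.999). It was -0.51 without vehicle replicate 1 and -0.05 without vehicle replicate 2, so its size rested on that library.

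**Figure D3:**
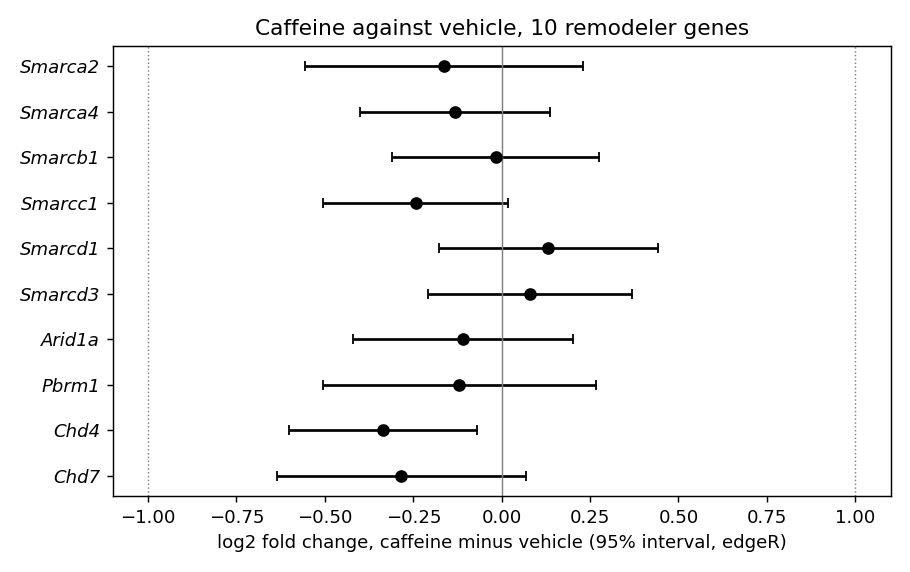
Points are edgeR log2 fold changes (caffeine minus vehicle) of the 10 genes and bars are their 95% intervals, with dotted lines at a 2-fold change in either direction. Every interval lies between the dotted lines, and that of Chd4 (-0.60 to -0.07) is the one that does not cover 0.

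The intervals also set how large a change these data leave room for. The lowest bound of the 10 was -0.63, for Chd7, and the highest 0.44, for Smarcd1. A 2-fold change in either direction was thus outside the 95% interval for 10 of 10 genes, as it was for 84.9% of all tested genes. Among the 14 transcripts the interval of NM_026003 reached from -1.23 to 0.15. None of the 14 passed FDR 0.05 in edgeR, where 0% of all tested transcripts passed, and none passed with limma-voom. At an unadjusted p under 0.05 stood 2, NM_001174079 of Smarca4 and the single transcript of Chd4, against 7.36% of all tested transcripts, and the groups did not overlap for 3, those 2 and the single transcript of Smarcc1, against 23.3%.

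To compare levels between genes, CPM was divided by transcript length from the matching GENCODE models and summed over a gene's transcripts. On this scale, CPM per kilobase, Chd4 was highest at 84 ± 11.9 (SD over all 5 libraries), from 73.7 to 102. A group of 4 followed, Smarcb1 at 61.9 ± 5.05, Smarcd3 at 59.8 ± 4.72, Smarca4 at 54.8 ± 4.57 and Smarcc1 at 54.4 ± 5.89, whose ranges each overlapped with the next. Arid1a at 38.4 ± 4.81 and Pbrm1 at 36.1 ± 6.48 overlapped with each other and lay below the group of 4. Smarcd1 stood at 20.9 ± 2.23, apart from its neighbours in the order, and Chd7 at 12.5 ± 2.32 and Smarca2 at 10.5 ± 2.32 came last and overlapped. In these ventricles Smarca4 was thus above Smarca2, and Smarcd3 above Smarcd1, in every library. The Smarca2 value sums both of its forms. NM_026003, which starts downstream of the exons for the ATPase, has 1962 bases against 5921 for NM_011416, so it weighs more per CPM. The level of the BRM ATPase form alone is therefore below the Smarca2 value. For Pbrm1, Chd7 and NM_001174079 of Smarca4 the deposited gene models reach beyond the GENCODE ones. Adding those bases, a choice made after seeing the data, gave 29.2 for Pbrm1, 10.7 for Chd7 and 51.7 for Smarca4. Smarca4 then came after Smarcc1, and the order of the other means stayed as it was. The gaps between ranges given above are for the GENCODE lengths alone.

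**Figure D4:**
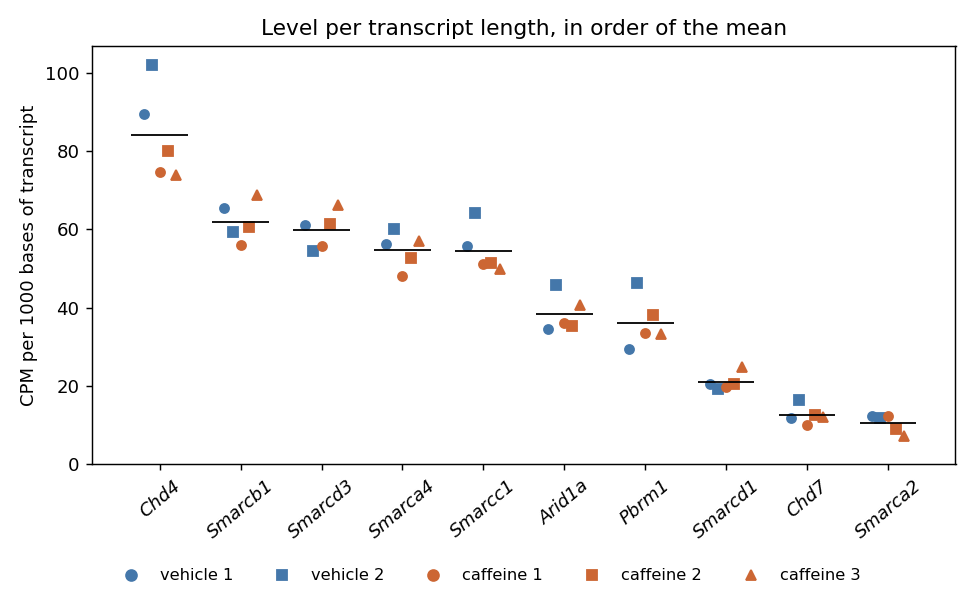
Points are CPM per kilobase of transcript in each library, genes in order of their mean (line). Chd4 stands above the others, and Smarca2 and Chd7 lie at the foot, with vehicle and caffeine points intermixed for most genes.

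The upstream sequences of the paralog pairs whose levels differ, Smarca4 with Smarca2 and Smarcd3 with Smarcd1, are shown as 250 bases before the RefSeq start (GRCm38.p6), from a table that held 9 of the 10 genes, Chd7 not among them. Capitals mark the GC box GGGCGG, the site of Sp1 and KLF factors, or its reverse complement. The windows are chr9:21615919-21616168 (plus strand), chr19:26604910-26605159 (plus), chr5:24602003-24602252 (minus) and chr15:99702037-99702286 (plus). The GENCODE models start inside the windows for Smarca2 (26605052), Smarcd3 (24602012) and Smarcd1 (99702129). Part of each of these windows is thus exon in those models. The start of the short Smarca2 form, 26748403, is not shown.
Smarca4 upstream: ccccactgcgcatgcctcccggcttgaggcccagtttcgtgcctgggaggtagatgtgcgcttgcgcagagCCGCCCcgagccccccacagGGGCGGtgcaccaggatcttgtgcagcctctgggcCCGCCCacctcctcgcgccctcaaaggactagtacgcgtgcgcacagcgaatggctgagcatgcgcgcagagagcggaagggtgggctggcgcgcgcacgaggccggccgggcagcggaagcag
Smarca2 upstream: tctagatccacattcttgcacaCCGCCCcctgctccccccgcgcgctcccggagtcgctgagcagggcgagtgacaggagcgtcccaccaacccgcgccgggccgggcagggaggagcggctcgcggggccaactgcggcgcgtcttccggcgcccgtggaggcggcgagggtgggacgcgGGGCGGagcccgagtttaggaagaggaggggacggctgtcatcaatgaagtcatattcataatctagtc
Smarcd3 upstream: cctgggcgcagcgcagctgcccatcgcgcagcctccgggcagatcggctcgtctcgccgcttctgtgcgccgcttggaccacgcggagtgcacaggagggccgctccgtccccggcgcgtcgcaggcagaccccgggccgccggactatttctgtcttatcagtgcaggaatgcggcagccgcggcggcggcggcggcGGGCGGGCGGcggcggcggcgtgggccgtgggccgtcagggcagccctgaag
Smarcd1 upstream: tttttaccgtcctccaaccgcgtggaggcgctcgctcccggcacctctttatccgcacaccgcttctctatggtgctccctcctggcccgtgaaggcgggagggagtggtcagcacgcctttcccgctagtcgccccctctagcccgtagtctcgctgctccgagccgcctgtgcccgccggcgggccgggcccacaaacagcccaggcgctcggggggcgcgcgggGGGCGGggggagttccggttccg

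A GC box on either strand was found in 10 of the 11 windows of the 9 genes, all but that of Pbrm1. It was found in 32.7% of all 32851 windows, which cover 27025 genes. Chd4 had 2 windows, which overlap and share a GC box. The GC box holds a CpG itself, and windows of like CpG content were not set beside these. No window of the 9 genes held TATAAA (12.4% of all windows), and CCAAT was found in 1 window, of Chd4 (33.8%). CACGTG was found in Pbrm1 alone (6.02%), and TGACGTCA (1.55%) and the NRF1 motif (0.782%) in none. The reverse complements were searched too, and matches could overlap. CpG dinucleotides numbered 25 for Smarca4, 28 for Smarca2, 38 for Smarcd3 and 29 for Smarcd1, against a median of 6 over all windows (quartiles 2 and 16). Over the 11 windows they ran from 12, in 1 of those of Chd4, to 38. These matches describe the letters in the window and say nothing on binding.

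Libraries differed in a way that touches these genes. Among tested genes whose longest transcript has 5000 bases or more (2758 genes), the median deviation of log2 CPM from the gene's own mean was -0.16 for vehicle replicate 1 but 0.13 for replicate 2, and lay between -0.03 and 0.04 in caffeine. For 3557 genes under 2000 bases it was 0.13 and -0.07 in vehicle and between -0.03 and 0.01 in caffeine. Of the 7 remodeler genes with a transcript of 5000 bases or more, Pbrm1 (-0.28 and 0.38), Arid1a (-0.15 and 0.27) and Chd7 (-0.08 and 0.40) were low in vehicle replicate 1 and high in vehicle replicate 2. Smarca4, Smarca2, Smarcc1 and Chd4 were above their mean in both vehicle libraries and further above it in replicate 2. The part of transcript length in these values was not tested.

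**Figure D5:**
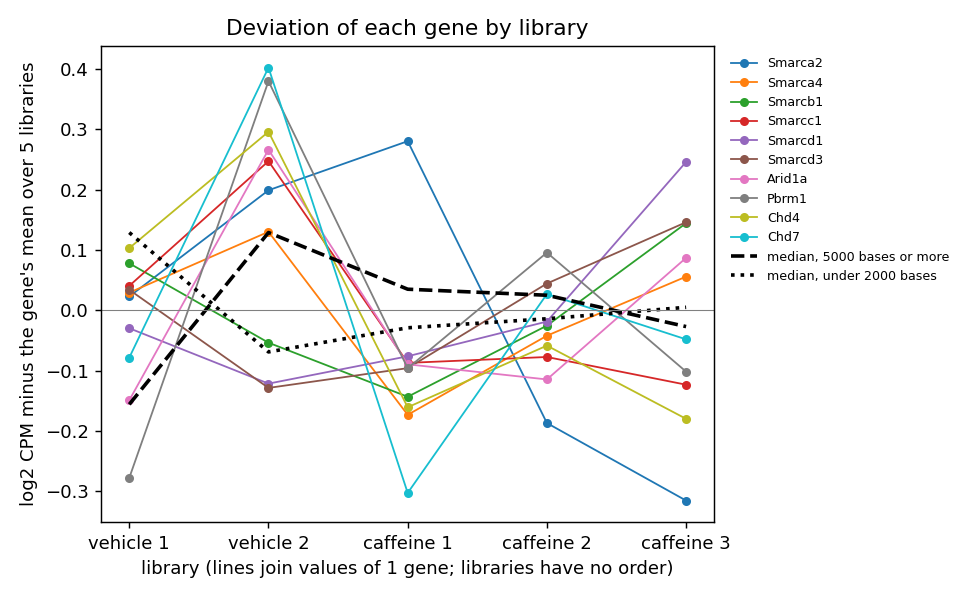
Lines join the deviation of log2 CPM from its own 5-library mean for each remodeler gene, and thick lines give the median over all tested genes with transcripts of 5000 bases or more (dashed) and under 2000 bases (dotted). Chd7 and Pbrm1 peak in vehicle replicate 2 at 0.40 and 0.38, where the median of long transcripts is also highest (0.13).

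Markers of the labelled tissue were present. The 7 cardiomyocyte markers summed to 30138 to 32714 CPM in vehicle and to 26377 to 27931 CPM in caffeine, so the groups did not overlap. Among single genes, 20.4% of all tested did not overlap, 9.27% in the lower direction. Actc1 and Myh7 made up most of the sum. Of the markers looked at singly, Myh6, Myh7 and Myl7 were lower in caffeine without overlap. Tnnt2, Actc1 and Nkx2-5 overlapped, and Nkx2-5 had a positive log2 fold change (0.13). The 6 endocardial and endothelial markers summed to 1102 to 1147 CPM in the vehicle libraries, against 991 to 1130 CPM in caffeine, and the 4 epicardial ones to 305 to 350.5 and 316 to 438 CPM. The 5 erythroid markers summed to 5985 to 10456 CPM in the vehicle libraries, against 6296 to 9925 CPM in caffeine. The 6 markers of endoderm and liver summed to 7.58 to 117 and 7.22 to 38.3 CPM, highest in vehicle replicate 2, and the 4 of macrophages to 3.28 to 3.34 and 2.15 to 10.2 CPM. No marker was at 0 in all libraries. The part of cell makeup in the values of Chd4 and Smarcc1 was not tested. The gene counts of a library summed to between 21713381 and 25048134, and each of the 10 genes had 581 counts or more in every library.

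None of the other remodeler genes was called either, in an edgeR fit where 0.00723% of all tested genes passed. The other remodeler genes were 68 listed genes of BAF, CHD, NuRD, ISWI, INO80, SRCAP and p400 complexes and of the wider SNF2 family. Of these, 66 were in the table and 65 were tested, and 0 passed FDR 0.05 in edgeR, DESeq2 or limma-voom. At an unadjusted p under 0.05 stood 1 gene in each direction, against 3.13% of all tested genes in the higher and 2.07% in the lower direction. Log2 fold changes were positive for 32 and negative for 33, with a median of -0.00082.

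Among 21 tested other BAF subunits the median was 0.05, with 16 positive. Ss18l1, also called CREST and an alternative to the Ss18 subunit, had 5.23 and 6.01 CPM in the vehicle libraries, against 9.22, 8.64 and 8.08 CPM in caffeine. Every caffeine library was above both vehicle libraries at a low level of expression (log2 fold change 0.62, SE 0.20, edgeR adjusted p = 0.778), and the value ran from 0.52 to 0.70 with 1 library left out. Smarce1, an HMG-box core subunit, had 157 and 150.4 CPM in the vehicle libraries, against 133, 135 and 122 CPM in caffeine, not overlapping (-0.24, SE 0.12, edgeR adjusted p = 0.992).

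Of the 7 tested other CHD enzymes 6 had negative values (median -0.03). Chd8, which like Chd7 belongs to the third CHD subfamily, had 103 and 123 CPM in the vehicle libraries, against 89.2, 92.4 and 89.9 CPM in caffeine, not overlapping (-0.32, SE 0.13, edgeR adjusted p = 0.941; -0.22 without vehicle replicate 2). The 11 other NuRD subunits had a median of -0.02, with the histone-binding Rbbp7 at -0.20 (SE 0.12) and the scaffold Mta1 at 0.21 (SE 0.13; 0.12 without caffeine replicate 3). The 9 ISWI genes had a median of -0.13 and 8 negative values, with the ATPase Smarca5 at -0.28 (SE 0.14, edgeR adjusted p = 0.981) and its partner Rsf1 at -0.22 (SE 0.18; 0.06 without vehicle replicate 2). The 12 tested genes of INO80, SRCAP and p400 complexes had a median of -0.01, with Ruvbl1 at -0.23 (SE 0.15; -0.13 without vehicle replicate 1 or caffeine replicate 1, -0.35 without vehicle replicate 2) and Ino80 at 0.10 (SE 0.18; -0.13 without vehicle replicate 1). The 6 other SNF2-family genes had a median of 0.03, with Atrx at -0.20 (SE 0.25; 0.26 without vehicle replicate 2) and Rad54l at 0.13 (SE 0.20; -0.04 without caffeine replicate 3).

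A list of 12 heart genes reported as partners or targets of these remodelers held 11 tested genes. Of these 0 passed FDR 0.05 in edgeR, DESeq2 or limma-voom and 0 had an unadjusted p under 0.05. Over all tested genes 0.00723% passed in edgeR and 5.2% had an unadjusted p under 0.05. The median log2 fold change of the 11 heart genes was 0.07, with 7 positive and 4 negative values. Myh7, the beta myosin heavy chain, had the smallest p, with 9047 and 9289 CPM in the vehicle libraries, against 8356, 7561 and 6957 CPM in caffeine, not overlapping (-0.27, SE 0.13, edgeR adjusted p = 0.982). The T-box factor Tbx20 had 404 and 558 CPM in the vehicle libraries, against 557, 576 and 551 CPM in caffeine (0.22, SE 0.14; 0.01 without vehicle replicate 1).

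The genes whose pattern over the 5 libraries was nearest to that of Smarcd3 and of Chd7 were found by the root mean square difference of log2 CPM after centring each gene. Nearest to Smarcd3 were Sirpa (0.00462), Nrf1 (0.0170) and Clcc1 (0.0196), each highest in caffeine replicate 3 as Smarcd3 was. Their longest transcripts have 3982, 3584 and 3064 bases, against 1735 for Smarcd3. Nearest to Chd7 were Itih5 (0.0115), Prkdc (0.0467) and Birc6 (0.0490), each highest in vehicle replicate 2, with transcripts of 7900, 12647 and 15768 bases against 10216 for Chd7. With 5 libraries and 13829 genes some close matches are to be had for any pattern.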

How the data were processed

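The 10 genes and the gene lists were chosen with earlier results of these data known. The authors deposited estimated counts per gene and per transcript, not scaled between libraries, on RefSeq (2013) and Ensembl release 71 annotations, per the file headers. TopHat and Partek are the tools, and mm10 and GRCm38 the builds, listed in the submitters' processing notes without a version. Whether counting used strand is not given in the sources used here. Among 14 transcripts of the 10 genes, 6 had a deposited stop 1 base past the GENCODE end and 0 had an equal one, so ends are the stop minus 1.

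Counts were rounded, filtered with filterByExpr, scaled by TMM and tested over all RefSeq genes or transcripts with edgeR 4.0.16 in R 4.3.3 (quasi-likelihood test, robust, two-sided, Benjamini-Hochberg, FDR 0.05). Each SE came from dividing the log2 fold change by the root of its F statistic. Transcript usage was tested with diffSpliceDGE, and CPM ratios within libraries with an exact permutation test adjusted over 5 ratios. The edgeR gene, transcript and usage tests were also run on simulated counts, with 1 spread for all features and changes of 2-fold or more. Those changes are larger than any of the 10 genes showed, and the outcome is not given here. Alternatives were RLE or no scaling, no filter, DESeq2 1.42.0, limma-voom (limma 3.58.1), Ensembl genes, the replicate number as a block, Simes adjustment and leaving out each library. The text names all 10 genes, the 2 genes with the smallest p of each other group, and the 3 genes nearest in pattern to Smarcd3 and to Chd7. Arid1b and Chd3 are named for their ratios. Lengths came from GENCODE M21 and upstream windows from RefSeq (GRCm38.p6). Gene lengths were found for 98.45% of tested genes. The Ensembl transcript table was not used here.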

Additional observations from a re-analysis of the deposited data

How the results depend on the processing

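None of the 10 genes, none of the other remodeler genes, none of the 14 transcripts and no usage test of the 3 genes passed FDR 0.05 under any alternative run. Of 120 fold changes of the 10 genes under alternatives, 114 kept their direction and 6 turned. Most of the 120 refit the same 5 libraries with another scaling, filter, tool, block or annotation, so they are not separate checks. All turns but that of Smarcb1 with no scaling came from leaving out a library. Smarcb1 turned to 0.0437 with no scaling and ran from -0.11 to 0.0490 with 1 library left out. Over the same omissions Smarcd3 ran from -0.0253 to 0.16, Arid1a from -0.30 to 0.0869 and Pbrm1 from -0.41 to 0.22, each turning without vehicle replicate 2. The log2 ratio difference of Smarca2 to Smarca4 ran from -0.29 to 0.12 and that of Pbrm1 to Arid1a from -0.11 to 0.13. The number of RefSeq genes past FDR 0.05, 1 in the fit above, was 6 with no low-count filter (more genes tested), 18 with DESeq2, 2 with Ensembl genes, and 0 to 18 with 1 library left out (0 without vehicle replicate 1, 18 without caffeine replicate 1, 8 without vehicle replicate 2, 2 without caffeine replicate 2). With the replicate number as a block it was 52, with 0 of the 10 genes among them, and Chd4 had -0.31. Caffeine replicate 3 has no vehicle library of its number, so in that fit it added nothing to the contrast. Leaving that library out also gave -0.31 for Chd4. Same-numbered libraries deviated from their group means with a correlation of -0.02 for replicate 1 and 0.13 for replicate 2. The 2 vehicle libraries deviate from their mean by equal and opposite amounts, so these correlations are not separate checks. No label says what a number marks, and these 2 pairs do not settle whether same-numbered libraries shared a batch. The causes of these differences were not tested. The 95% intervals give the precision that 2 vehicle and 3 caffeine libraries allow, and a p that misses the threshold does not show equal levels.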
